A study of Drosophila melanogaster with 3 samples.

Results

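The cells described here are intestinal cells of Drosophila melanogaster that carried at least 1 UMI of esg together with at least 2 UMIs of stg and dUTPase summed, at a level of at least 2 per 10,000 UMIs of the cell. A UMI (unique molecular identifier) tags 1 captured RNA molecule, so UMIs count molecules rather than reads. Of 5190 cells that passed the cell filter, 1737 had an esg UMI and 503 of those met the rule. The early pupa gave 335 of them, the immature adult 144 and the mature adult 24. They are called stg/dUTPase cells and are set against the 627 esg cells with no UMI of either gene (84, 126 and 417 cells), the esg cells with neither. The other 607 esg cells (72, 236 and 299) lay between.

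Dissociated intestines gave 1 10x Genomics 3′ single-cell library per stage, namely early pupa (labelled Red-eye pupa), immature adult (Day 1 Adult) and mature adult (Day 7-8 Adult). All 3 libraries carry the genotype label CantonS(per01 background), the sex label Female and the time label ZT0, and no agent was given in any of them. The study's methods name CantonS flies for the single cells, so the per01 background rests on the labels alone. They call the middle sample pharate where cells are counted, while the study's results and the label both give day 1 adults. The study followed the appearance of the circadian clock while the intestine matures. The comparison here asks how esg cells with stg and dUTPase UMIs at this level differ from esg cells with no UMI of either. It also counts these cells at each stage. The esg cells with neither were not chosen to lack other cell cycle RNAs. With 1 library per stage, stages are set side by side without a test, and the cells of a library share their source.

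esg encodes a Snail-family factor that marks intestinal stem cells (ISCs) and enteroblasts (EBs), the progenitors of absorptive enterocytes (ECs) and of hormone-secreting enteroendocrine cells (EEs). stg encodes the Cdc25 phosphatase that releases Cdk1 from inhibition and so drives cells from G2 into mitosis, and dUTPase destroys dUTP and keeps uracil out of newly made DNA. Most cells of the adult gut are post-mitotic or endoreplicating, and ISCs are the main source of mitoses.

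The kept cells of the 3 stages, in this order, held 27026674, 21629263 and 47585248 UMIs. The stg/dUTPase cells held 5436199, 4654202 and 432803 of these, and the esg cells with neither 764315, 1556501 and 13694616. The stg/dUTPase cells had a median of 15112, 32677.5 and 16749.5 UMIs per cell, against 8630.5, 12302 and 18860 in the esg cells with neither, so in the first pair of stages they were the deeper cells and in the mature adult they were not. A cell with few UMIs can lack a stg or dUTPase UMI by sampling alone, so a comparison with controls nearest in depth is given beside the cell cycle lists. It paired cells 1 to 1 by UMIs, and the sums still differed in the first pair of stages, with 974195, 3746857 and 432803 UMIs in the stg/dUTPase cells, against 764315, 1556501 and 432894 in the esg cells with neither. At most 2 barcodes were shared between any pair of libraries. Scrublet called 8 of 5190 cells as doublets, with 0 among the stg/dUTPase cells, which is too few for a working call, so doublets were not removed. roX1 and roX2, RNAs of the male dosage compensation complex, stood at 204 and 88.7 CPM, UMIs per 1000000 UMIs of the summed cells, in the stg/dUTPase cells of the early pupa, against 372 and 157 CPM in its esg cells with neither, although the library carries a Female label. In the adult libraries roX1 was at 7.95 CPM or less in both sets.

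The selecting genes were measured first, as a description without a test, since their UMIs chose the cells. stg (chromosome 3R, 29251826 to 29255800, minus strand, BDGP6) stood at 385, 142 and 11.6 CPM in the stg/dUTPase cells. Values by stage run in the order early pupa, immature adult, mature adult. dUTPase (chromosome 2L, 11011312 to 11012135, plus strand) stood at 351, 232 and 275 CPM. The stg level of the mature adult rests on 5 UMIs, with an exact 95% Poisson interval from 3.75 to 26.96 CPM, while dUTPase ranged from 232 to 351 CPM over the stages. The esg level was 651, 590.4 and 961 CPM in the stg/dUTPase cells, against 462, 554 and 173 CPM in the esg cells with neither. The median stg/dUTPase cell carried 8, 15 and 15 esg UMIs, against 2, 4 and 2 in the esg cells with neither. A requirement of at least 3 esg UMIs at 2 or more per 10,000 was met by 294, 135 and 20 of the stg/dUTPase cells, against 36, 72 and 99 of the esg cells with neither. Comparisons restricted to these cells are called esg-matched. Both sets pass the same floor there, but their esg levels were not matched. The esg-matched cells with neither stood at 822.5, 691.3 and 1158 CPM of esg.

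Both genes were seen in most of the younger cells but not of the mature ones. Of the 335 stg/dUTPase cells of the early pupa, 283 (84.5%, exact 95% interval 80.1 to 88.2) had UMIs of both genes, 27 of stg only and 25 of dUTPase only. In the immature adult 100 of 144 (69.4%, 61.2 to 76.8) had both, 7 stg only and 37 dUTPase only. In the mature adult 2 of 24 (8.33%, 1.03 to 27) had both, 0 stg only and 22 dUTPase only, so the mature cells were chosen almost wholly on dUTPase. The median of stg and dUTPase summed was 5.97, 3.08 and 2.69 per 10,000 UMIs, and the lowest cells just inside the threshold stood at 2.02, 2.01 and 2.004. Just outside it, 35, 106 and 51 esg cells had 2 or more UMIs at 1 to 2 per 10,000. Of the stg/dUTPase cells, 45 of 335, 68 of 144 and 17 of 24 lay under 3 per 10,000, so the adult sets lie mostly near the threshold.

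The stg/dUTPase cells made up a large share of esg cells in the pupa and a small one in the mature adult. In the early pupa they were 335 of 491 esg cells (68.2%, exact 95% interval 63.9 to 72.3). In the immature adult they were 144 of 506 (28.5%, 24.6 to 32.6), and in the mature adult 24 of 740 (3.24%, 2.09 to 4.79). As a share of all cells they were 16.6%, 12.03% and 1.21%. Intervals cover counting error alone and do not cover the spread between animals or libraries. Cells with no esg UMI met the stg and dUTPase part of the rule in 3.81%, 2.17% and 0.161% of cases (58 of 1522, 15 of 691 and 2 of 1240), at a median of 5828, 5212 and 5443.5 UMIs per cell, against 14249, 23957 and 28633 UMIs in esg cells. When cells were thinned to 5000 UMIs the shares were 59.6%, 21.5% and 4.51% of the 403, 404 and 355 cells that still had an esg UMI. Of the esg cells, 33, 38 and 72 were under that depth and another 55, 64 and 313 kept no esg UMI. At 10000 UMIs the shares were 81.0%, 40.3% and 10.8% of 368, 424 and 380 cells. The minimum of 2 UMIs was kept after thinning, so it amounts to 4 per 10,000 at 5000 UMIs and to 2 per 10,000 at 10000 UMIs. With all UMIs, a threshold of 4 UMIs and 4 per 10,000 gave 48.5%, 8.30% and 0.270%. Among esg-matched cells the shares were 77.2%, 33.4% and 7.09%, with the same order of stages under each of these settings. The plot of shares sets the main values beside the thinned ones and beside cells without esg.

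**Figure D1:**
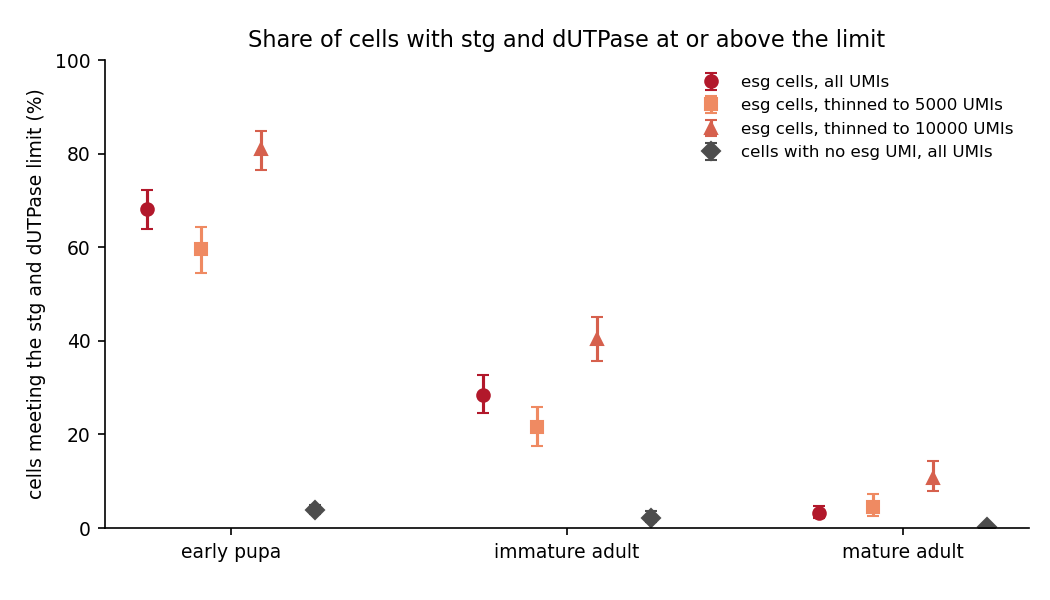
Share of cells (%, y axis) meeting the stg and dUTPase limit in the early pupa, immature adult and mature adult: esg cells with all UMIs (circles), thinned to 5000 UMIs (squares) or 10000 UMIs (triangles), and cells with no esg UMI (diamonds), with exact 95% Clopper-Pearson intervals for counting error. The esg cells with all UMIs stand at 68.2%, 28.5% and 3.24%, and the cells with no esg UMI at 3.81% or less. The minimum of 2 UMIs was kept after thinning, so the squares ask for 4 per 10,000 and the other symbols for at least 2 per 10,000.

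Markers of progenitors were high in the stg/dUTPase cells, and markers of the differentiated types were low outside the mature adult. The summed level of 12 progenitor markers other than esg was 7014, 5231 and 5418 CPM in the stg/dUTPase cells, against 2736, 3638 and 862 CPM in the esg cells with neither, and 550, 366 and 162 CPM in cells without esg. In the esg-matched cells with neither it was 3725, 4118 and 5561 CPM, which in the mature adult is above the level of all stg/dUTPase cells. Each of the 12 had a positive fold, and Dl, the Notch ligand of ISCs, and Sox100B, a Sox factor of progenitors, passed the test. The 11 EE markers summed to 739, 1643 and 14140 CPM in the stg/dUTPase cells, against 10970, 27020 and 3240 CPM in the esg cells with neither. The 11 EC markers summed to 240, 320 and 7648 CPM, against 2338, 2375 and 136400 CPM, and the 5 markers of pupal cells to 1352, 290 and 330 CPM, against 44770, 3426 and 987 CPM. The hemocyte genes Hml, NimC1, He and Pxn were at 0 in both sets of every library. The 7 visceral muscle markers summed to 345, 10.3 and 6.93 CPM in the stg/dUTPase cells, against 428, 16.7 and 3.94 CPM in the esg cells with neither. The esg cells with neither therefore held RNA of EEs, of pupal cells and, in the mature adult, of ECs. The part of this RNA in each fold was not tested. In the esg-matched cells with neither, EC markers stood at 435, 346 and 9650 CPM and EE markers at 17390, 29760 and 19780 CPM. These EE values lie above those of all esg cells with neither.

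HmgD and Df31, genes of chromatin proteins, stood higher in the stg/dUTPase cells than in the esg cells with neither of every library. Both are markers of these cells that were chosen with earlier results of these data known, so their p-values are no independent support. HmgD (chromosome 2R, 21701458 to 21716727, plus strand), an HMG-box protein of the nucleosome linker, stood at 961, 344 and 531 CPM in the stg/dUTPase cells, against 230.3, 126 and 28.2 CPM in the esg cells with neither. The lowest stg/dUTPase value was above the highest value of the esg cells with neither, and the log2 fold was 2.18 ± 0.41 (SE; adjusted p = 0.0304). Df31 (chromosome 2L, 21626309 to 21629932, minus strand), a histone-binding protein that opens chromatin, stood at 3462, 1752 and 1851 CPM in the stg/dUTPase cells, against 1180, 777 and 132 CPM in the esg cells with neither. For Df31 the log2 fold was 1.77 ± 0.43 (SE; adjusted p = 0.0601), which missed the threshold. Every library gave a higher Df31 level in the stg/dUTPase cells, and Df31 passed the test in the esg-matched cells (log2 fold 1.15 ± 0.17, adjusted p = 0.0496), with adjusted p from 0.000998 to 0.259 over the 16 alternative settings that kept the library block. HmgD passed in 14 of the 16, with adjusted p from 9.78e-05 to 0.0684, and the exceptions were the settings without the early pupa and without the immature adult.

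Across all genes, the stg/dUTPase cells had more RNA of DNA replication and mitosis and less RNA of differentiated cells. UMIs were summed per library and cell set and fitted with edgeR's quasi-likelihood test with the library as a block, so a call rests on the change across the 3 stages. Adjusted p-values are Benjamini-Hochberg over the 6957 genes tested and the threshold is 0.05. Of these genes 67 were higher in the stg/dUTPase cells (0.963%) and 379 were lower (5.45%), with 66 and 350 of them in the same direction in all 3 libraries. Of the 67, 33 belonged to 8 lists of cell cycle and chromatin genes, and 1, sls, to a list of another cell type, while 23 of the 379 lower genes belonged to lists of other cell types. For 59 of the 67 the lowest of the 3 stg/dUTPase levels exceeded the highest of the 3 levels in the esg cells with neither. The 67 were called for a rise in these same sums, and the share without overlap over all 6957 genes was not counted. The same limit holds where single genes are said not to overlap. Folds use totals scaled by TMM, whose factor was 0.459 in the esg cells with neither of the mature adult and 1.04 to 1.24 in the other sums, so a log2 fold in the mature adult lies below that of the ratio of the CPM printed beside it. The counts were 6 and 37 of 5815 genes in the esg-matched cells (0.103% and 0.636%) and 20 and 90 with controls nearest in depth, and without the pupal, the immature or the mature library they were 45 and 474, 81 and 510, and 386 and 905. Of the 67 higher genes, 53 were also tested in the esg-matched cells and all 53 had a fold in the same direction there.

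**Figure D2:**
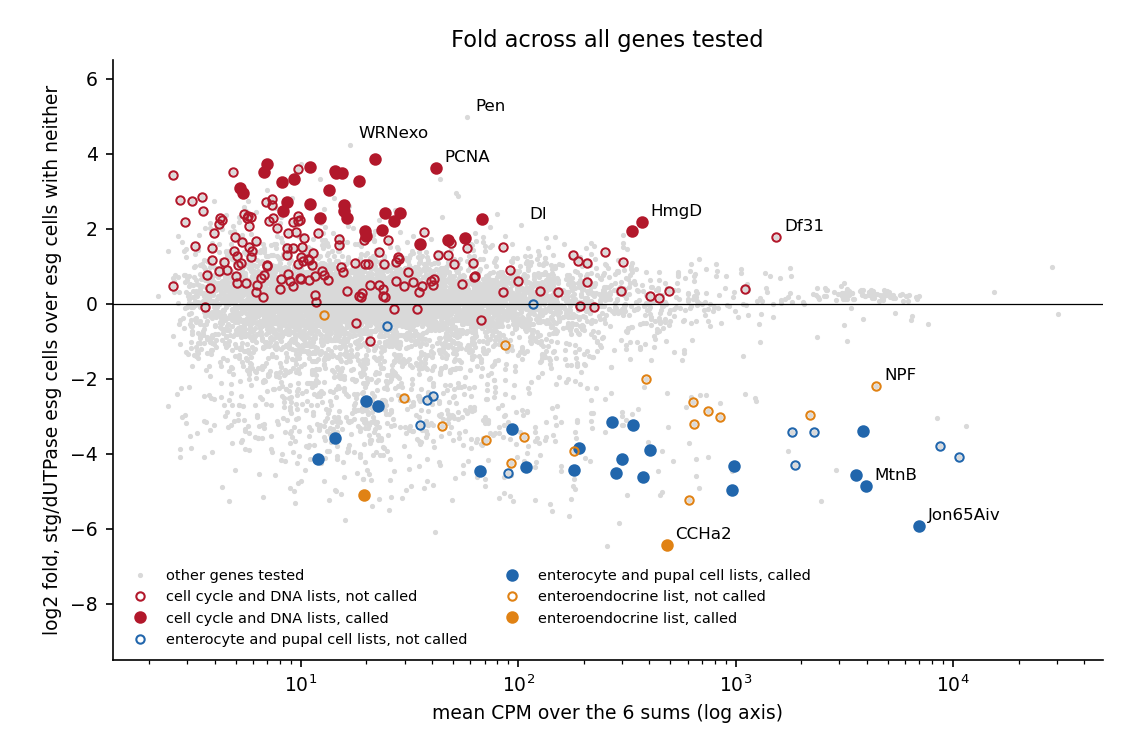
Log2 fold of the stg/dUTPase cells over the esg cells with neither (y axis, from edgeR with library as a block) against the mean CPM of the 6 sums (x axis, log axis) for the 6957 genes tested; filled circles are list genes called at an adjusted p under 0.05, open circles list genes not called, and small grey dots all other genes. Cell cycle list genes lie above 0 in 178 of 186 cases, against 3450 of 6957 over all genes tested, and EC and pupal cell genes lie mostly below -2.

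Genes that license and unwind replication origins were higher in the stg/dUTPase cells. Of 20 tested genes of this list, 6 were higher and 0 lower, with a median log2 fold of 1.57, against a median of -0.01 over all genes tested. The list summed to 495, 372 and 206 CPM in the stg/dUTPase cells, against 191, 156 and 42.5 CPM in the esg cells with neither. Mcm3, a subunit of the MCM helicase that unwinds DNA at the fork, stood at 38.6, 27.7 and 13.9 CPM in the stg/dUTPase cells, against 3.93, 2.57 and 0.438 CPM in the esg cells with neither. For Mcm3 the log2 fold was 3.48 ± 0.41 (SE; adjusted p = 0.0106). Mcm7 stood at 51.1, 33.1 and 4.62 CPM in the stg/dUTPase cells, against 1.31, 1.93 and 0.803 CPM in the esg cells with neither. For Mcm7 the log2 fold was 3.48 ± 0.71 (SE; adjusted p = 0.0379). The level of both was lowest in the mature adult, where the Mcm7 level rests on 2 UMIs with an interval from 0.560 to 16.7 CPM that overlaps that of the esg cells with neither (0.401 to 1.44 CPM). By the summed levels alone the 2 sets did not overlap for either gene. Mcm5 (log2 fold 3.52) and dpa, the fly Mcm4 (2.30), belong to the same helicase, Mcm10 (3.098) helps to start it, and Orc2 (2.96) is a subunit of the origin recognition complex. Without the pupal, the immature or the mature library the list gave 5, 2 and 9 higher genes, and dpa, Mcm5, Mcm10 and Orc2 were not called without the immature adult. In the esg-matched cells the median was 0.97 and Mcm3 was called, at 36.7, 26.6 and 13.4 CPM in the stg/dUTPase cells, against 5.58, 2.61 and 1.95 CPM in the esg cells with neither.

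Genes of the replication fork and of DNA synthesis were higher as well. Their list had 5 higher and 0 lower genes of 21 tested, all 21 with a positive fold and a median of 1.91, and it summed to 799, 632 and 377 CPM in the stg/dUTPase cells, against 144, 203 and 48.6 CPM in the esg cells with neither and 268, 282 and 112 CPM in the esg cells between. PCNA, the sliding clamp that holds DNA polymerase on its template, stood at 109, 85.7 and 39.3 CPM in the stg/dUTPase cells, against 7.85, 8.35 and 1.24 CPM in the esg cells with neither. For PCNA the log2 fold was 3.62 ± 0.37 (SE; adjusted p = 0.00961). Claspin, which links the fork to the checkpoint kinase, stood at 41.2, 48.3 and 11.6 CPM in the stg/dUTPase cells, against 2.62, 7.07 and 0.438 CPM in the esg cells with neither. For Claspin the log2 fold was 3.28 ± 0.42 (SE; adjusted p = 0.0127). For both genes every stg/dUTPase level lay above every level of the other set. RPA2, which coats single-stranded DNA, had a log2 fold of 2.42, and Caf1-180 and Caf1-55, which place histones on new DNA, of 2.19 and 1.76. PCNA was called in 15 of 16 alternative settings and Claspin in each of the 13 in which it was tested. Without the early pupa or the immature adult Caf1-55 was not called, and the list gave 8 higher genes without the mature adult. In the esg-matched cells the list's median was 1.44, with 13 of 13 tested genes above 0, 11 of them at an unadjusted p under 0.05 and 0 called by edgeR. With controls nearest in depth 4 of 11 fork genes and 1 of 6 origin genes were higher, with medians of 1.83 and 0.96.

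Enzymes that supply nucleotides were partly higher. Of 13 tested genes 3 were higher and 0 lower, with a median log2 fold of 0.84. Ts, thymidylate synthase, which makes dTMP from the dUMP that dUTPase yields, stood at 67.5, 45.8 and 6.93 CPM in the stg/dUTPase cells, against 9.16, 1.93 and 0.0730 CPM in the esg cells with neither. For Ts the log2 fold was 3.87 ± 0.55 (SE; adjusted p = 0.0148). The 2 subunits of ribonucleotide reductase, which makes deoxynucleotides, followed. RnrL stood at 34.03, 39.5 and 11.6 CPM in the stg/dUTPase cells, against 2.62, 5.14 and 1.75 CPM in the esg cells with neither (log2 fold 2.64), and RnrS at 59.1, 77.1 and 13.9 CPM in the stg/dUTPase cells, against 10.5, 8.995 and 2.34 CPM in the esg cells with neither (log2 fold 2.41). Both had their highest level in the immature adult, and RnrS was not called without that library. Among chromatin packaging genes 5 of 22 were higher and 0 lower, with a median of 1.29, and without the pupal, the immature or the mature library 1, 0 and 13 were. Besides HmgD these were His2Av, the H2A.Z and H2A.X variant histone, at 800.4, 495 and 356 CPM in the stg/dUTPase cells, against 140, 164 and 48.1 CPM in the esg cells with neither (log2 fold 1.93), LBR, the lamin B receptor (1.97), Ssrp, a subunit of the FACT histone chaperone (1.69), and asf1, another histone chaperone (1.60). In the esg-matched cells Df31 and HmgD were the 2 genes of this list that were called and 0 of 13 nucleotide genes were. With controls nearest in depth 5 of 21 chromatin genes and 2 of 12 nucleotide genes were higher.

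Genes of mitosis and cytokinesis were higher in number. Of 48 tested spindle, kinetochore and cytokinesis genes 11 were higher and 0 lower, all 48 had a positive fold, and the median was 1.93. The list summed to 1594, 916 and 1238 CPM in the stg/dUTPase cells, against 678, 650.2 and 180.1 CPM in the esg cells with neither. pav, the kinesin of the centralspindlin complex that forms the cleavage furrow, stood at 22.3, 9.02 and 30.04 CPM in the stg/dUTPase cells, against 3.93, 0 and 0.803 CPM in the esg cells with neither. For pav the log2 fold was 3.65 ± 0.61 (SE; adjusted p = 0.0210). feo, which bundles the microtubules of the central spindle, stood at 47.8, 14.2 and 11.6 CPM in the stg/dUTPase cells, against 3.93, 3.21 and 0.438 CPM in the esg cells with neither. For feo the log2 fold was 3.02 ± 0.46 (SE; adjusted p = 0.0165). The chromosomal passenger complex was represented by aurB (2.67), Incenp (2.47), borr (2.70) and Det (1.95), which corrects and finishes chromosome attachment, the checkpoint by mad2 (3.25), the anaphase activator by fzy (3.73), and cytokinesis by scra (2.29) and sti (2.47). The spindle kinesin ncd had 3.33. In the early pupa the esg cells with neither had 0 UMIs of mad2 and fzy, so the levels in the stg/dUTPase cells, 20.8 and 18.4 CPM, were at least 5.30-fold and 4.69-fold higher, against a floor of 3 UMIs in that library. This list rested on the early pupa, with 3 higher genes without it, 19 without the immature adult and 14 without the mature adult. The genes aurB, Incenp, borr, Det, mad2, fzy, ncd and sti were not called without the early pupa. Among esg-matched cells 0 of 31 tested genes of this list were called and the median was 0.71, with adjusted p = 0.0833 by edgeR for pav and 0.123 for aurB. With controls nearest in depth 0 of 20 were called, at a median of 0.71.

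Of 17 tested genes of G2 and mitotic entry, 3 were higher and 0 lower, with a median of 1.09. polo, the mitotic kinase, stood at 60.3, 12.5 and 9.24 CPM in the stg/dUTPase cells, against 2.62, 0.643 and 0.730 CPM in the esg cells with neither. For polo the log2 fold was 3.54 ± 0.57 (SE; adjusted p = 0.0183). Top2, the topoisomerase that untangles sister chromatids, stood at 172, 55.9 and 125 CPM in the stg/dUTPase cells, against 27.5, 20.6 and 8.40 CPM in the esg cells with neither. For Top2 the log2 fold was 2.26 ± 0.39 (SE; adjusted p = 0.0231). CycA, a cyclin of S phase and G2, had a log2 fold of 1.80 and was not called without the early pupa. Restricted to esg-matched cells, 0 of 12 were called at a median of 0.65, with adjusted p = 0.110 by edgeR for polo, 0.0726 for Top2 and 0.236 for CycA, and with controls nearest in depth 0 of 8 were called at a median of 0.90. Of 21 tested genes of G1 to S control 0 passed the edgeR test in either direction (7 were higher at an unadjusted p under 0.05 and 1 by DESeq2), with a median of 0.74. E2f1, the transcription factor of S phase genes, stood at 295, 256 and 219.5 CPM in the stg/dUTPase cells, against 221, 204.9 and 47.1 CPM in the esg cells with neither (log2 fold 0.58 ± 0.33 (SE; adjusted p = 0.368)), and without the mature adult 3 of the 21 were higher. Of 24 tested genes of the DNA damage and repair list 0 passed by edgeR or DESeq2, with 5 higher at an unadjusted p under 0.05, a median of 0.75 and 3 higher without the mature adult. Rrp1, a DNA repair endonuclease that was placed in the ribosome biogenesis list instead, was higher (log2 fold 1.92). Over all genes tested 0.963% were higher, and 0.103% in the esg-matched cells, so a list with 0 calls lies near those shares. Over the 8 lists together, 178 of 186 tested genes had a fold above 0, against 3450 of 6957 over all genes tested. Of the 186, 33 were higher (17.7%) and 0 lower, against 0.963% and 5.45% over all genes tested, with a median of 1.25. In the single stages 173, 169 and 153 were above 0. The plot of levels gives the pair of values of each stage for the genes of most weight here.

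**Figure D3:**
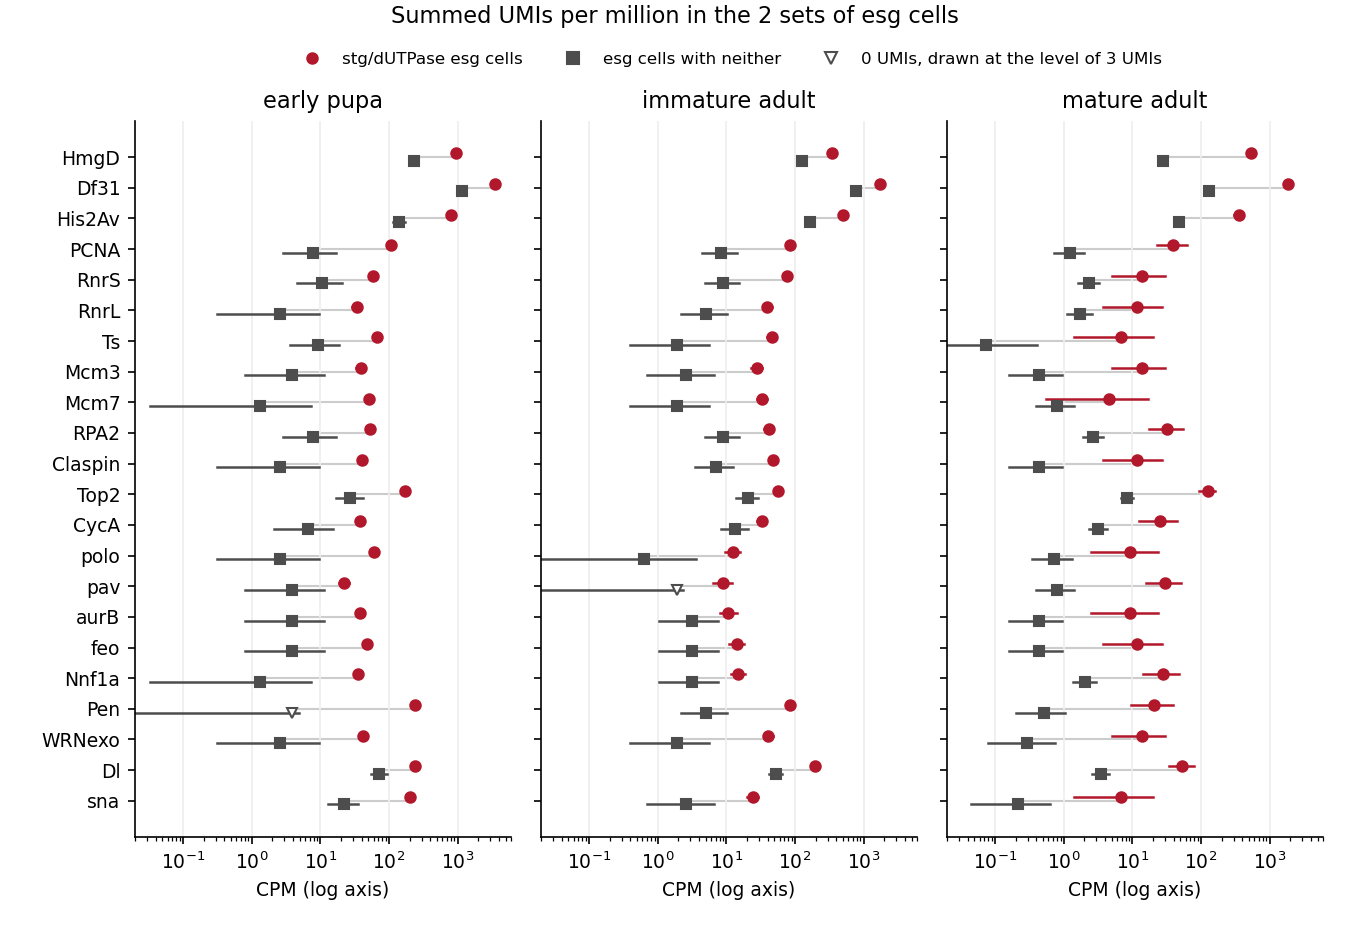
Level (CPM, log axis) of 22 named genes in the stg/dUTPase cells (circles) and the esg cells with neither (squares; open triangles stand for 0 UMIs, drawn at the level of 3 UMIs), 1 panel per stage, with exact 95% Poisson intervals for counting error. PCNA, for example, stood at 109, 85.7 and 39.3 CPM in the stg/dUTPase cells, against 7.85, 8.35 and 1.24 CPM in the esg cells with neither.

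Some of the largest rises by the rule for named genes, which asks for at least 20 CPM in the higher set, were in genes outside the lists. Pen, an importin alpha that carries proteins into the nucleus, stood at 239, 84.01 and 20.8 CPM in the stg/dUTPase cells, against 0, 5.14 and 0.511 CPM in the esg cells with neither. For Pen the log2 fold was 4.98 ± 0.85 (SE; adjusted p = 0.0224). Its UMIs in the early pupa, 1301 in the stg/dUTPase cells and 0 in the esg cells with neither, make it at least 61.0-fold higher there, against a floor of 3 UMIs, and in the esg-matched cells it missed the threshold (adjusted p = 0.0527 by edgeR). WRNexo (chromosome 3R, 18364244 to 18366162, minus strand), the fly counterpart of the exonuclease part of human WRN, stood at 41.6, 41.04 and 13.9 CPM in the stg/dUTPase cells, against 2.62, 1.93 and 0.292 CPM in the esg cells with neither. For WRNexo the log2 fold was 4.24 ± 0.43 (SE; adjusted p = 0.00961), and it was called in each of the 14 alternative settings that tested it and kept the library block. CG10336, a gene known by its number only, stood at 29.4, 26.4 and 20.8 CPM in the stg/dUTPase cells, against 6.542, 1.29 and 0.438 CPM in the esg cells with neither (3.52 on the log2 scale). The 2 sets did not overlap for any of these 3 genes. cmet (3.31), the fly CENP-E kinesin, and Nnf1a (2.81), a kinetochore subunit, are genes of chromosome attachment that were in none of the lists. All 15 genes with the largest rise by the rule for named genes stayed called when any 1 of the 3 libraries was left out, but they were chosen as called in these same sums. Of the 67 higher genes, 28 were tested in all alternative settings that kept the library block, and 0 were called in all of them. Only 2 of the 67 were called wherever they were tested.

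Among 28 tested genes of progenitor identity, 3 were higher and 1 was lower. Dl, the Notch ligand, stood at 239, 199 and 53.1 CPM in the stg/dUTPase cells, against 71.96, 52.7 and 3.51 CPM in the esg cells with neither. For Dl the log2 fold was 2.10 ± 0.36 (SE; adjusted p = 0.0217). E(spl)m7-HLH, a target of Notch, stood at 204.9, 42.5 and 13.9 CPM in the stg/dUTPase cells, against 41.9, 5.78 and 0.292 CPM in the esg cells with neither. For E(spl)m7-HLH the log2 fold was 2.95 ± 0.47 (SE; adjusted p = 0.0172). Both were higher in the stg/dUTPase cells of every stage, and both had their lowest level in the mature adult. Sox100B had a log2 fold of 1.90, and sna, a paralog of esg that was in no list, stood at 204, 24.3 and 6.93 CPM in the stg/dUTPase cells, against 22.2, 2.57 and 0.219 CPM in the esg cells with neither (3.33 on the log2 scale). Ance, a peptidase found in EBs and ECs, was lower, at 4.23, 2.36 and 60.1 CPM in the stg/dUTPase cells, against 39.3, 23.8 and 357 CPM in the esg cells with neither (log2 fold -3.46). N, the Notch receptor, klu, an EB factor, Sox21a, Egfr and E(spl)m3-HLH did not pass. N stood at 511, 471 and 455 CPM in the stg/dUTPase cells, against 77.2, 245 and 54.2 CPM in the esg cells with neither. For N the log2 fold was 1.83 ± 0.45 (SE; adjusted p = 0.0610). Without the mature adult the list gave 18 higher and 2 lower genes of 29, Sox100B was not called without the early pupa, and Dl was not called without the immature adult. With esg-matched cells 0 of 26 were called and the median was 0.63, against 1.27 over all esg cells, with adjusted p = 0.105 by edgeR for Dl, 0.0858 for E(spl)m7-HLH and 0.0983 for Sox100B. With controls nearest in depth 2 of 27 were higher and 1 lower, at a median of 0.86.

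Genes of ECs and pupal cells and a pair of EE peptides were lower, while 8 of the 10 largest falls were in genes of no list. CCHa2, a peptide hormone, stood at 2.02, 25.4 and 13.9 CPM in the stg/dUTPase cells, against 403, 2245 and 205.3 CPM in the esg cells with neither, the largest fall among the genes named, with a log2 fold of -6.45 ± 0.61 (SE; adjusted p = 0.00961), and CCHa1, another peptide, had a log2 fold of -5.10. Jon65Aiv, a serine protease of ECs, stood at 0, 7.95 and 2232 CPM in the stg/dUTPase cells, against 30.1, 421 and 39280 CPM in the esg cells with neither. For Jon65Aiv the log2 fold was -5.94 ± 0.82 (SE; adjusted p = 0.0132). Of 24 tested EC genes 16 were lower and 0 higher, with a median of -3.88: among them the digestive enzymes Amy-p (-4.96), Jon65Aiii (-4.58) and Mal-A1 (-4.50), and the septate junction genes Tsp2A (-3.86), mesh (-3.34) and Ssk (-3.15). Of 8 tested genes of pupal cells 5 were lower, all of them metallothioneins, which bind copper and zinc. MtnB stood at 387, 20.2 and 39.3 CPM in the stg/dUTPase cells, against 22360, 780 and 163 CPM in the esg cells with neither. For MtnB the log2 fold was -4.86 ± 0.67 (SE; adjusted p = 0.0132). Other genes among the 10 largest falls were CG32444 (-5.51), CREG (-5.50), Frq1 (-5.39), a neuronal calcium sensor, Eglp4 (-5.35), of the aquaporin family, whose span overlaps Eglp2 on the same strand, and CG9396, CG42249, CG9864 and CG42807, at -5.76, -5.26, -5.22 and -5.21. The trypsin, amylase, maltase and metallothionein genes have close paralogs among which reads may have been split. Of 18 tested EE genes 2 were lower, CCHa1 and CCHa2, with all 18 below 0, a median of -3.12 and 15 lower by DESeq2. Without the mature adult 18 of 22 were lower. The EC list summed to 323, 402 and 12960 CPM in the stg/dUTPase cells, against 3226, 3740 and 230100 CPM in the esg cells with neither. The pupal cell list summed to 2229, 316 and 760.2 CPM, against 51470, 3606 and 6258 CPM. The part of the makeup of the esg cells with neither in these falls was not tested. In the esg-matched cells 0 genes of the EC, pupal cell and EE lists were called by edgeR, with 5 of 15, 4 of 7 and 15 of 17 lower at an unadjusted p under 0.05, and the medians were -0.83, -1.19 and -3.55. Without the early pupa Amy-d, and without the immature adult Jon65Aiii and LManIII, were not called.

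The remaining lists held 2 called genes, both higher, where 0.963% of all genes tested were higher and 5.45% lower. Of 35 tested genes of mitogenic signalling 0 were called by edgeR and 0 by DESeq2, with 3 higher and 2 lower at an unadjusted p under 0.05 and a median of 0.31. Myc, a transcription factor of growth, stood at 1013, 1671 and 1652 CPM in the stg/dUTPase cells, against 608, 1017 and 361 CPM in the esg cells with neither (log2 fold 0.81 ± 0.37 (SE; adjusted p = 0.256)), and InR, the insulin receptor, at 319, 729 and 726 CPM in the stg/dUTPase cells, against 297, 628 and 126 CPM in the esg cells with neither (0.55 ± 0.38 (SE; adjusted p = 0.476)). Of 30 tested genes of the ribosome biogenesis list 1 was higher, Rrp1 (1.92), and 28 had a positive fold, with a median of 0.71. Rrp1 encodes an endonuclease of DNA base excision repair and was misplaced in this list, of which no other gene was called. Of 9 tested clock genes 0 were called by edgeR or DESeq2 and 0 had an unadjusted p under 0.05, with a median of 0.07. cwo, a repressor of the clock, stood at 287, 195 and 215 CPM in the stg/dUTPase cells, against 349, 179 and 71.9 CPM in the esg cells with neither, and Pdp1 at 405, 946 and 1155 CPM in the stg/dUTPase cells, against 382, 652 and 380.1 CPM in the esg cells with neither. Of 18 tested genes of dissociation stress 0 were called by edgeR and 3 were lower by DESeq2, with 7 lower at an unadjusted p under 0.05, a median of -0.82 and 1 above 0. Without the mature adult 7 of them were lower. Of 6 tested muscle genes sls, which encodes the sarcomere protein titin, was higher, at 276, 5.37 and 0 CPM in the stg/dUTPase cells, against 35.3, 0.643 and 0.0730 CPM in the esg cells with neither (log2 fold 2.87 ± 0.56 (SE; adjusted p = 0.0325)), while Mhc, Act57B, Mlc2 and Mp20, which were too low to be tested, stood at 12.7, 15.8, 14.9 and 5.34 CPM in the stg/dUTPase cells of the early pupa, against 37.9, 149, 85.0 and 53.6 CPM in its esg cells with neither. The sls level lay almost wholly in the early pupa, and sls was not called without the immature adult and not tested without the early pupa. The hemocyte and fat body list had 0 genes with enough UMIs to be tested, and of 3 tested genes of trachea and neurons 0 were called, with 2 lower at an unadjusted p under 0.05 and 2 lower by DESeq2. The plot of list medians sets these lists beside those of the cell cycle.

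**Figure D4:**
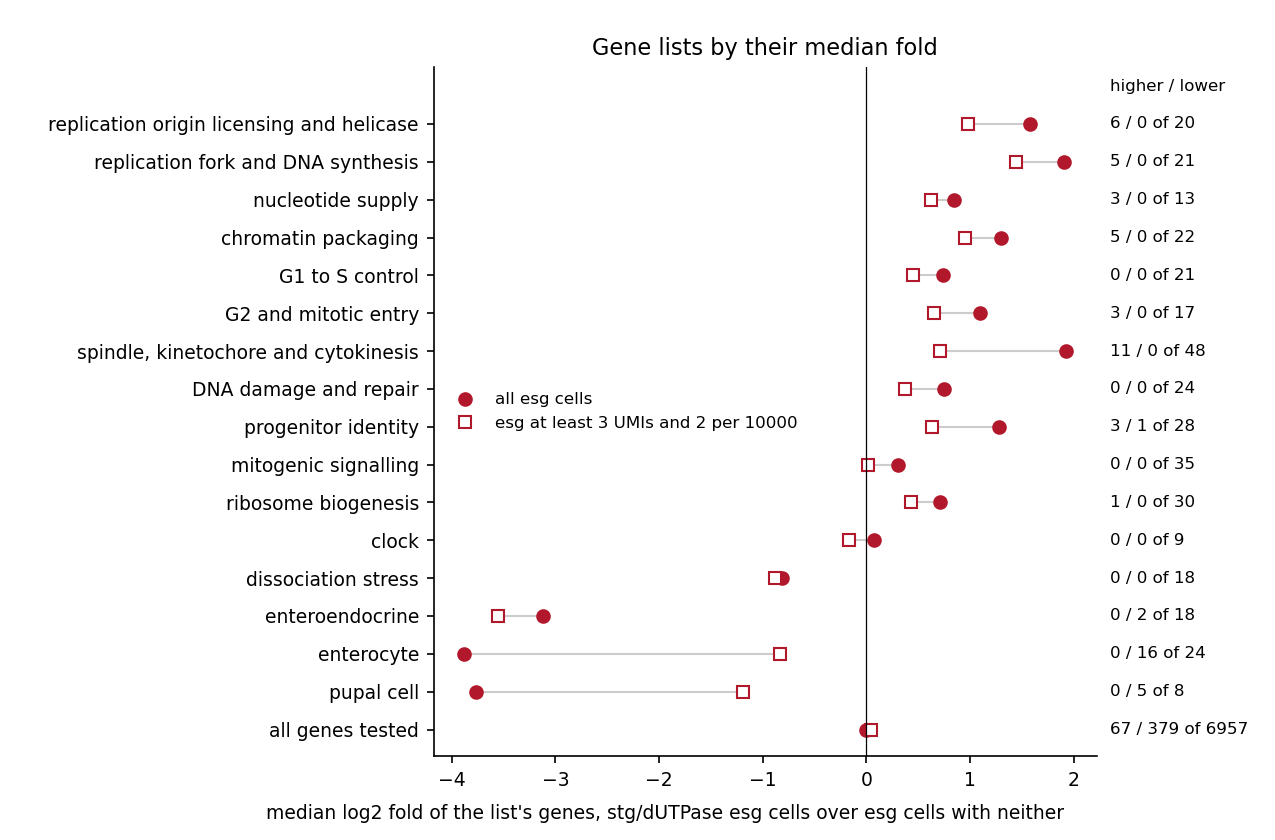
Median log2 fold of the stg/dUTPase cells over the esg cells with neither (x axis) for each of 16 gene lists and for all genes tested, over all cells of the 2 sets (filled circles) and over the esg-matched cells (open squares), with the number of genes called higher and lower on the right. Cell cycle lists lie above 0 in both, at 1.91 and 1.44 for the replication fork list, and the EC list lies at -3.88 and at -0.83 in the esg-matched cells.

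Cells varied widely in how much replication and mitosis RNA they held. The lists of replication origins and of the replication fork summed per cell had a median of 9.03, 6.58 and 4.62 per 10,000 UMIs in the stg/dUTPase cells, against 2.81, 3.02 and 0.694 in the esg cells with neither, and 4.01, 3.81 and 2.36 in the esg cells between. The middle 50% of the stg/dUTPase cells ran from 5.625 to 14.2 in the pupal library, from 3.66 to 14.6 in the immature one and from 2.93 to 5.50 in the mature one. The highest cells reached 91.5, 39.6 and 15.7. The lists of mitotic entry and of the spindle, pooled as mitosis, had a median of 23.9, 16.2 and 18.8 per 10,000 UMIs in the stg/dUTPase cells, against 13.8, 13.7 and 4.10 in the esg cells with neither. For replication, 1 cell in 4 of the esg cells with neither lay above 4.65, 4.83 and 2.25 per 10,000, and 1 in 4 of the stg/dUTPase cells under 5.625, 3.66 and 2.93. The middle 50% of the 2 sets thus overlapped in the immature adult only. The full ranges overlapped in every stage, with the highest esg cells with neither at 14.05, 32.88 and 21.27. For mitosis the upper quartile of the esg cells with neither was 20.4, 17.1 and 12.55, against a lower quartile of 17.8, 13.4 and 13.2 in the stg/dUTPase cells. Within the stg/dUTPase cells the dUTPase level went with the replication level, with a Spearman rho of 0.63, 0.58 and 0.15 over the 335, 144 and 24 cells of the stages. The stg level and the replication level gave 0.04, -0.20 and -0.35. The replication and the mitosis level gave 0.46, 0.29 and 0.49, and stg and dUTPase gave -0.11, -0.43 and -0.48. These values describe cells of 1 library that share a depth denominator and were chosen on the sum of stg and dUTPase, which by itself sets the 2 genes against each other, and they carry no test.

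**Figure D5:**
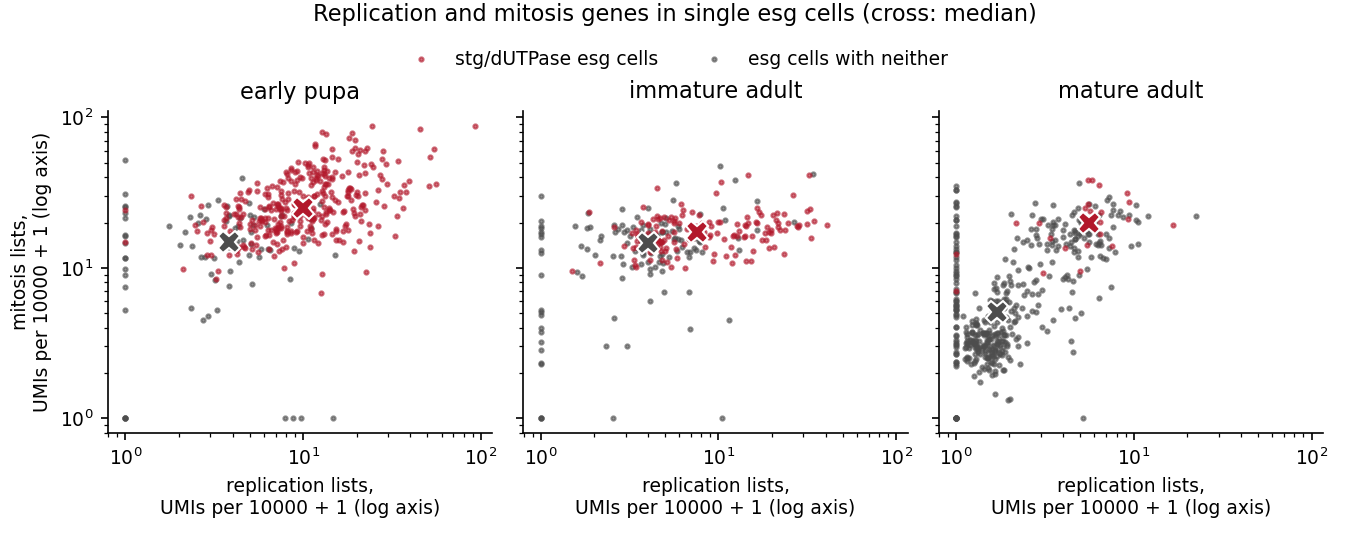
Level per cell of the mitosis lists (y axis) against the replication lists (x axis), both in UMIs per 10,000 plus 1 on log axes, 1 panel per stage; each point is 1 stg/dUTPase cell (red) or 1 esg cell with neither (grey), and crosses mark medians. Before 1 is added, the replication medians are 9.03, 6.58 and 4.62 in the stg/dUTPase cells and 2.81, 3.02 and 0.694 in the esg cells with neither.

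In summed UMIs, cells with stg alone stood below cells with dUTPase alone in replication genes. This is a description: the kinds were split on the selecting genes, and the dUTPase level itself went with the replication level. Fewer than 10 cells of a kind in the adult libraries left no test. The ratios carry exact 95% intervals for counting error only, which leave out the spread between cells. The stg-only cells of the immature adult also held 54080 CPM of the EE list. In the early pupa the replication fork list stood at 364 CPM in the 27 stg-only cells, against 628 CPM in the 25 dUTPase-only cells, a log2 ratio of -0.79 (-1.11 to -0.47). In the immature adult it stood at 125 CPM in 7 stg-only cells, against 779 CPM in 37 dUTPase-only cells, a log2 ratio of -2.65 (-3.49 to -1.92). In that library PCNA had 0 UMIs in the stg-only cells, against 126 in the dUTPase-only cells (117 CPM), and Mcm5, Mcm7, Claspin and RPA3 were among another 10 genes of the origin, fork, mitotic entry and spindle lists with at least 20 UMIs in the dUTPase-only cells and 0 in the stg-only cells. The stg-only cells were few, and 1 UMI in them stood for 8.30 CPM. The upper limit of the log2 ratio lay below 0 for PCNA (-1.92), RPA3 (-1.32), Mcm7 (-0.72), RpA-70 (-0.49) and Claspin (-0.39). It lay above 0 for dup (0.27), Mcm5 (0.33), Psf1 (0.44), lok (0.57), Rif1 (0.70) and Cdk1 (0.85). In the early pupa 24 of the 30 genes of the origin, fork, mitotic entry and spindle lists with at least 20 UMIs had a ratio below 0, stg-only over dUTPase-only, the lowest of them polo (-2.60, -4.56 to -1.10), feo (-2.26) and Det (-2.18), and cnn, a centrosome scaffold (1.05, 0.25 to 1.87), and vtd, the cohesin subunit Rad21 (0.87), were the highest. The lists of G1 to S control and of DNA damage had intervals that spanned 0 in both libraries, and spindle genes did so in the immature adult (-0.02, -0.34 to 0.28). Cells with both genes stood at 844 and 604 CPM for the fork list in these libraries. When all cells were split by which gene had more UMIs, the fork list gave a log2 ratio of -0.72 (-0.81 to -0.63) in the pupal library and -1.14 (-1.30 to -0.97) in the immature one, stg-leaning over dUTPase-leaning.

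EE genes separated the kinds further. The EE list stood at 7568 CPM in the stg-only cells of the early pupa, against 1156 CPM in the dUTPase-only cells, and at 54080 CPM in the stg-only cells of the immature adult, against 127 CPM in the dUTPase-only cells. NPF, a gut peptide hormone, took 1068 and 3431 of these UMIs, or 77.4% and 80.7% of the NPF UMIs of all stg/dUTPase cells. In the mature adult the 2 cells with stg UMIs held 93.2% of the EE list's UMIs and 3970 of 3976 NPF UMIs, at 242500 CPM for the list, while the other 22 cells stood at 1109 CPM. Few cells carried this RNA at a high level: 7, 5 and 3 of the stg/dUTPase cells had at least 100 EE list UMIs per 10,000 (2.09%, 3.47% and 12.5%), against 36, 42 and 32 of the esg cells with neither (42.9%, 33.3% and 7.67%). They held 53.8%, 90.2% and 98.6% of the EE list UMIs of the stg/dUTPase cells. At least 2 UMIs of pros, AstA, AstC, Tk, NPF and Dh31 summed, the EE UMIs, were in 98, 22 and 7 of the stg/dUTPase cells (29.3%, 15.3% and 29.2%). The same held for 46, 52 and 246 of the esg cells with neither (54.8%, 41.3% and 59.0%). Leaving out all cells of both sets with at least 2 EE UMIs changed the main counts to 43 higher and 411 lower genes. The part of doublets in these cells was not tested.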

How the data were processed

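Droplet single-cell RNA-seq of dissociated Drosophila intestines gave 1 library each of early pupa, immature adult and mature adult, with the stage taken from the labels. The deposited matrices hold counts of UMIs per gene and barcode, which the authors made with Cell Ranger 3.0.2; the values are not normalized, and the paper's methods name a Drosophila reference genome for the alignment. The data were read with Python 3.11.15, numpy 2.4.6, scipy 1.17.1 and pandas 2.3.3, doublet scores came from Scrublet in scanpy 1.11.5, and figures from matplotlib 3.10.9.

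Cells with a mitochondrial share under 25% (38 genes), 200 to 4000 genes and 1000 to 100000 UMIs were kept, 5190 in all. Depth was 21629263 to 47585248 UMIs per library. UMIs were summed per library and cell set, which weights deep cells more, and the 6 sums were fitted in edgeR 4.0.16 (R 4.3.3) with TMM scaling, its default filter on low counts and library as a block; esg, stg and dUTPase stayed in the totals and were not tested. The cells of both sets come from the same 3 libraries, 1 per stage, so p-values measure the spread of the difference between stages and not between animals. The SE is the size of the log2 fold divided by the square root of F. Intervals are exact 95% intervals (Poisson, Clopper-Pearson, or conditional on the total for a ratio) and cover counting error only. A count of 0 is given a floor of 3 UMIs.

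The 19 gene lists hold 452 entries, of which 451 are in the files and 365 distinct genes were tested. The cell rule, the lists and the markers were chosen with earlier results of these data known. Genes named are the markers, the 15 largest rises and 10 largest falls among called genes with the same sign in all libraries and at least 20 CPM in the higher set, up to 4 genes per list, and called list genes; others are named where said. Alternatives were DESeq2 1.42.0, RLE scaling, other filters, limits and depths, no block, and each library left out; 1 more, joining the esg limit with removal of EE RNA, was added after the data were seen. On simulated counts for this comparison, 1 of 100 genes changed by a log2 fold of 1 and 43 of 100 changed by 2 were found, with 2 of 6760 unchanged genes called. Positions are from the BDGP6 annotation.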

Additional observations from a re-analysis of the deposited data

Results flagged for a closer look

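Among list genes, 5 had a fold of the stg/dUTPase cells over the esg cells with neither that lay beyond counting error and past 2-fold in opposite directions in a pair of stages; with 1 library per stage these differences were not tested. Folds are on the TMM scale, which shifts those of the mature adult down from the ratio of the CPM beside them, so that by CPM alone CG8891 would be under 2-fold there. NPF, a gut peptide hormone, had a log2 fold of -3.40 in the early pupa (254 CPM in the stg/dUTPase cells, against 2755 CPM in the esg cells with neither) and 1.32 in the mature adult (9187 CPM against 1398 CPM). Dh31, another gut peptide whose span overlaps Bace on the same strand, had -4.99 in the early pupa (1.84 CPM against 60.2 CPM) and 1.29 in the mature adult (834 CPM against 129 CPM). In the mature adult 2 of the 24 cells held 3970 of the 3976 NPF UMIs and all 361 Dh31 UMIs of the stg/dUTPase cells. Clk, the clock activator, had -2.21 in the early pupa (5.52 CPM against 26.2 CPM) and 1.30 in the immature adult (27.1 CPM against 12.2 CPM). chico, the insulin receptor substrate, had -1.05 in the early pupa (20.2 CPM against 43.2 CPM) and 1.26 in the mature adult (50.8 CPM, from 22 UMIs, against 8.03 CPM). CG8891 had 1.51 in the early pupa (25.4 CPM against 9.16 CPM, the lower value from 7 UMIs) and -2.34 in the mature adult (9.24 CPM, from 4 UMIs, against 17.7 CPM).

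Barcodes outside the cell filter also met the esg, stg and dUTPase rule. There were 14, 25 and 8 of them in the early pupa, immature adult and mature adult, 47 of 8086 barcodes left out. Of these, 6, 23 and 8 had 4000 genes or more, and 8, 2 and 0 had a mitochondrial share of 25% or more. They took no part in any comparison.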

How the results depend on the processing

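The counts of 67 higher and 379 lower genes moved with most choices. DESeq2 gave 136 and 707, no filter on low counts 224 and 965 of 12122 genes, thinning to 5000 UMIs 32 higher, controls nearest in depth 20 and 90, the esg limit of 3 UMIs 6 and 37, a limit of 40000 UMIs 137 higher, and leaving out cells with EE UMIs 43 higher. Without the library block edgeR called 0 and 0, with 1175 genes at an unadjusted p under 0.05; DESeq2 was not run without the block. Leaving out 1 library gave 45 to 386 higher and 474 to 905 lower genes, the highest of each without the mature adult. The added setting that joined the esg limit with removal of EE RNA gave 9 and 12. The other settings stayed within 1.5 times. Shares for early pupa, immature adult and mature adult were 48.5%, 8.30% and 0.270% at a threshold of 4, 76.2%, 60.3% and 18.8% with no minimum per 10,000, 77.2%, 33.4% and 7.09% with the esg limit, 59.6%, 21.5% and 4.51% at 5000 UMIs and 81.0%, 40.3% and 10.8% at 10000 UMIs. At 5000 UMIs the minimum of 2 UMIs, which was kept, amounts to 4 per 10,000. Of 1152 folds of 77 named genes under these settings, 864 kept direction and call, 277 lost the call, 9 gained it, and 2 turned: Jon65Aiii to 0.31 and MtnE to 0.13, both in the added setting and neither past the threshold there. Over all called genes, 66 of the 67 higher and 348 of the 379 lower kept direction wherever they were tested with the library block. The causes were not tested. The library block pairs the 2 cell sets of each library. Between stages no paired analysis was possible because each stage has 1 library. Leaving out libraries was not run for stg-only against dUTPase-only cells, which had no test. Depth limits the mature adult most, with 432803 UMIs in 24 cells.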

Other observations

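In the esg-matched cells 6 genes were higher and 37 lower, and those named here were chosen after their values were seen. The 6 higher genes were HmgD, Df31, Mcm3, CG10336, babos and pdgy, an acyl-CoA synthetase, of which 4 were also higher over all esg cells. babos stood at 182, 137 and 88.1 CPM in the stg/dUTPase cells, against 55.8, 33.0 and 26.0 CPM in the esg cells with neither, and pdgy at 44.4, 21.6 and 40.1 CPM in the stg/dUTPase cells, against 8.37, 4.35 and 5.86 CPM in the esg cells with neither, with log2 folds of 1.87 and 2.52. Among the 37 lower genes were Hr38 (-5.00) and sr (-2.92), transcription factors induced by activity in neurons, Actbeta (-4.58), an activin ligand, Nplp2 (-4.37), a neuropeptide-like precursor, CadN (-3.13), the neuronal cadherin, Rab3-GEF (-3.83), of synaptic vesicle release, and lab (-2.33), the Hox gene of the copper cell region. Hr38 stood at 4.84, 0.917 and 2.67 CPM in the stg/dUTPase cells, against 117, 75.7 and 11.1 CPM in the esg cells with neither. EE list genes summed to 21660, 33730 and 21760 CPM in the esg cells with neither of this comparison, and their part in these falls was not tested.

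When cells with 2 or more EE UMIs were left out of this comparison as well, 9 genes were higher and 12 lower of 4570 tested. The sums held 217, 114 and 13 stg/dUTPase cells, against 5, 39 and 63 esg cells with neither, and those of the early pupa had 74621 UMIs. PCNA stood at 105, 80.4 and 20.8 CPM in the stg/dUTPase cells, against 13.4, 14.7 and 10.8 CPM in the esg cells with neither, where the pupal value is 1 UMI, with a log2 fold of 2.06. His2Av (1.23), HmgD (1.38), D1 (1.05), an AT-hook protein of satellite DNA, and Df31 (0.94) are chromatin proteins, and alphaTub84B (0.88) and awd (0.79), an alpha-tubulin and a nucleoside diphosphate kinase, were higher too. The lower genes included Hsromega (-0.78), a noncoding RNA of the stress response, Fer2LCH (-0.84), a ferritin chain, Ctr1B (-2.32), a copper transporter, MtnD (-2.69) and Arc1 (-1.01). Hsromega stood at 2312, 1537 and 1317 CPM in the stg/dUTPase cells, against 4020, 2579 and 2269 CPM in the esg cells with neither.

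Of the 67 genes higher over all esg cells, 29 were in none of the gene lists. Among them were msd1 (3.04) and dgt4 (2.42), subunits of the augmin complex that branches spindle microtubules, HipHop (2.54), a telomere cap protein, RanGAP (2.01), of nuclear transport, ball (1.89), a histone kinase, and Gp210 (1.51), a nuclear pore protein, which were also chosen after their values were seen. Tre1 (1.68), a G protein-coupled receptor, was the 1 higher gene whose fold changed sign under an alternative, to -0.08.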
